A study of Oryza sativa Japonica Group with 8 samples.

Results

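Nested opposite-strand pairs are places in the rice genome where a transcribed locus on 1 strand lies wholly within the span of a longer locus on the other strand. The longer locus is called the host here and the shorter the nested locus. Pairs were chosen by position alone, as 1 plus-strand and 1 minus-strand locus on the same chromosome, each of 300 bp or more, with the ends of the nested locus at or inside those of the host. This gave 2099 pairs, made of 1606 hosts and 2076 nested loci. Together they comprise 3616 loci, or 9.48% of the 38124 loci of at least 300 bp, in a table of 41805 loci. There were 66 loci that were host in 1 pair and nested in another.

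The libraries came from Oryza sativa ssp. japonica plants raised in a greenhouse, with no treatment or genotype contrast. Strand-specific, single-end libraries of polyadenylated RNA came from flower buds, flowers taken on the flowering day, flag leaves, roots, milk grains and mature seeds. Leaves and roots were each taken as a pre-flowering sample, which mixed stages between panicle initiation and the eve of flowering, and as a post-flowering sample, which mixed later stages. Each of the 8 groups had 1 library, so no difference given here has a replicate check and no test was run.

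Transcripts from opposite strands of the same DNA are known as natural antisense pairs. In plants, an antisense transcript can be a separate gene that sits in an intron of its host, or a noncoding RNA that overlaps the exons of its host. Overlapping exons can pair as double-stranded RNA and feed small RNA pathways, and antisense transcription is also known to act on chromatin, as at the flowering repressor FLC of Arabidopsis. Separate genes nested in introns may instead have promoters of their own. The files give the outer ends of each locus but neither exons, coding regions nor gene names, so whether a nested locus overlaps an exon, an intron or an untranslated region of its host is not given, and loci are described by identifier and position only.

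Levels are in FPKM as deposited, fragments scaled by length and by the number mapped. The length used for each locus is not given, and values did not follow the distance between its ends alone. In flower buds, plus-strand values at the loci under 300 bp used to read the scales came in steps of 2622 FPKM. The lowest value above 0 among the shortest loci of 300 bp or more was 0.0675 FPKM in that library. The part of length in levels, and in ratios between a host and its nested locus, was not tested. In every library the scale of the minus strand was 7.48% to 10.9% higher than that of the plus strand. Those ratios carry an offset of that size from strand, apart from any that comes from length. Relative depth ran from 1 in mature seeds to 7.79 in the library whose label reads roots sampled after flowering, and lay between 1.65 and 2.85 in the others. That deepest library goes against its label: across all loci its Spearman correlation was 0.96 with post-flowering leaves and 0.63 with pre-flowering roots. It is called library R2 here, by its title, and no direction drawn from it is taken as a root result. All 41805 loci reached 1 FPKM in at least 1 library, the lowest maximum being 1.00015 FPKM, so all 2099 pairs passed the minimum of 1 FPKM in some library for both loci. In 613 pairs both loci reached 10 FPKM.

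Hosts were long and nested loci were short, which is partly fixed by the choice of pairs, since a host must span its nested locus. The median host of a pair was 6815 bp, with quartiles of 3943.5 and 14208 bp, each host being counted once for every pair. With each host counted once the median was 5747 bp, against a median of 2517 bp over all loci of at least 300 bp. The median nested locus was 747 bp, with quartiles of 467 and 1755.5 bp. It covered a median of 12.96% of its host, and in 144 pairs it covered more than 50%. The plus strand carried the host in 1060 pairs and the minus strand in 1039.

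Nested loci lay in every part of the host. By their midpoint, counted from the 5′ end of the host, with the host divided into 3 equal parts, 568 were in the 5′ part, 893 in the middle and 638 in the 3′ part. In the first 10% of the host lay 81 midpoints and in the last 10% lay 90. A locus wholly inside its host that covers more than 20% of it cannot have its midpoint there, so these counts are partly fixed by the choice of pairs. The nearer pair of ends was a median of 1163 bp apart, and 13 pairs shared an end. Every chromosome held such pairs, from 4.68 per 100 loci on chromosome 12 to 6.70 per 100 loci on chromosome 11.

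A single nested locus was the rule: 1351 hosts held 1, 175 held 2 and 80 held 3 or more, and 23 nested loci lay in 2 hosts. Hosts over 100 kb were few but crowded. These 27 hosts, out of 28 loci of that length in the table, held 199 pairs, or 9.48% of all pairs. The sources used here do not say how such long loci were assembled.

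At a limit of 1 FPKM the hosts were broadly transcribed and the nested loci were not. The sets also differed in length and level. Hosts, nested loci and all loci of at least 300 bp had median lengths of 5747, 749 and 2517 bp. Their median maxima were 35.3, 5.43 and 21.8 FPKM. The part of length and level in breadth was not tested. Hosts reached 1 FPKM in a median of 8 libraries and nested loci in a median of 3, against 7 for all loci of at least 300 bp. Of the hosts 57.5% stood at 1 FPKM or more in all 8 libraries, compared with 19.1% of nested loci and 44.3% of all loci of that length. In exactly 1 library stood 516 nested loci (24.9%), against 5.35% of hosts and 14.7% of all such loci. Those 516 were divided unevenly, with 119 in pre-flowering roots, 113 in mature seeds, 66 in library R2, 62 in flower buds, 51 in milk grains, 41 in pre-flowering leaves, 34 in post-flowering leaves and 30 in flowers. The division of all 5603 such loci of at least 300 bp was not counted, so this unevenness is not shown to be particular to nested loci.

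Host levels were similar among the vegetative and floral libraries and lowest in mature seeds. The median host level was 10.3 FPKM in flower buds, 9.79 in flowers, 10.2 in pre-flowering leaves, 10.9 in post-flowering leaves, 9.06 in pre-flowering roots, 10.4 in library R2, 9.15 in milk grains and 5.88 in mature seeds. The median nested level was 1.03 FPKM in flower buds, 0.906 in flowers, 1.02 in pre-flowering leaves, 1.12 in post-flowering leaves, 0.803 in pre-flowering roots, 1.40 in library R2, 0.772 in milk grains and 0.603 in mature seeds. Nested loci were highest in the deepest library and lowest in the shallowest, and the part of depth in that order was not tested. In bulk tissue, fewer cells of a type and less RNA per cell cannot be told apart. At 1 FPKM or more stood 58.4% of nested loci in library R2 and 44.5% in mature seeds. Nested loci listed at 0 numbered 261 and 742 in these libraries.

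**Figure D1:**
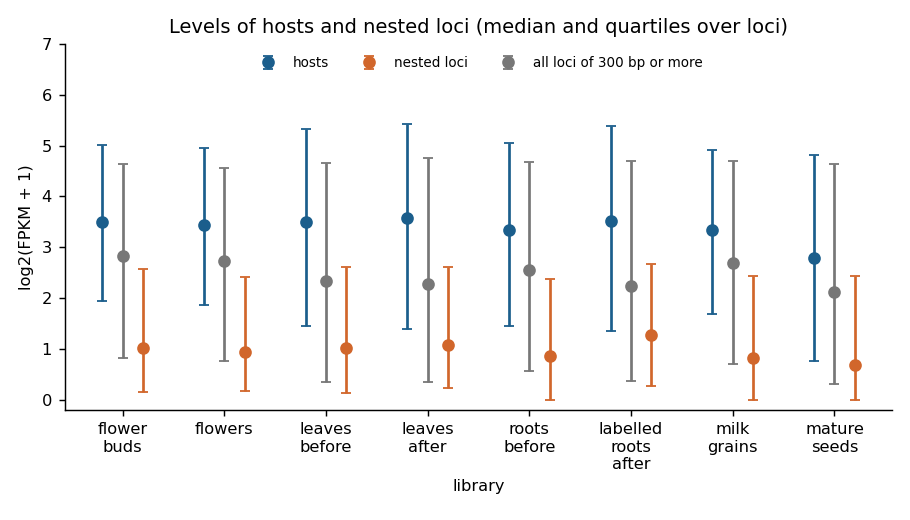
Levels of hosts, nested loci and all loci of 300 bp or more in the 8 libraries, on the log2(FPKM + 1) scale; points are medians over loci and bars run from the lower to the upper quartile, with 1 library per group. Hosts lie above and nested loci below the loci as a whole in every library, and the median nested locus stands between 0.603 FPKM in mature seeds and 1.40 FPKM in library R2.

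Within a pair the nested locus was usually the lower one. Its highest value over the libraries was a median of 16.4% of the highest value of its host, and in 600 pairs it was under 5%. In 464 pairs (22.1%) the nested locus reached a higher maximum than its host. It was the higher of the pair in 22.9% of pairs in flowers and 26.3% in mature seeds, the lowest and highest shares among the libraries. In 105 pairs the nested locus was higher in all 8 libraries, in 1026 pairs it was higher in none, and in 968 pairs the order of host and nested locus differed between libraries.

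Pairs with both loci at 1 FPKM or more were counted in each library. They numbered 896 in flower buds, 854 in flowers, 900 in pre-flowering leaves, 932 in post-flowering leaves, 860 in pre-flowering roots, 1044 in library R2, 821 in milk grains and 692 in mature seeds. In mature seeds the nested locus stood at 1 FPKM or more inside a host below 1 FPKM in 236 pairs, against 144 to 178 in the other libraries. Mature seeds also had the lowest share at 1 FPKM or more both of hosts (71.4%) and of all loci of at least 300 bp (63.2%). In 146 pairs (6.96%) no library held both loci at 1 FPKM. When every host was paired instead with every nested locus of the opposite strand from the other pairs, 9.46% of those pairings had no such library.

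Some pairs exchanged their order by a wide margin. In 238 pairs (11.3%) the nested locus was at least 4-fold above its host in 1 library and at least 4-fold below it in another, on the FPKM + 1 scale. The share was 13% among the other pairings. The number was 447 with a pseudocount of 0.1 and 86 of 1261 pairs after rescaling to equal sums. The library in which the nested locus stood farthest above its host was mature seeds in 71 of the 238 pairs, pre-flowering roots in 38 and flower buds in 33. The corresponding count was 26 or fewer in each other library. Many of the same libraries were extreme in the other direction. The nested locus stood farthest below its host in pre-flowering roots in 51 pairs, mature seeds in 50, flower buds in 29 and post-flowering leaves in 29.

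The next question was whether a host and its nested locus vary together across organs. For each pair the Pearson correlation of log2(FPKM + 1) over the 8 libraries was taken. These 8 points are not independent, because 3 libraries resemble leaves and because both loci of a pair share the depth of each library. The median r was 0.09, with quartiles of -0.30 and 0.57, and the median Spearman rho was 0.12. Over all 1665433 other pairings of the same hosts and nested loci, every one of which was computed and none drawn at random, the median r was -0.02 and the median rho was 0.01. An r of 0.7 or more was found in 334 pairs (15.9%) and in 9.17% of the other pairings. An r of -0.5 or less was found in 303 pairs (14.4%) and in 16.3% of the other pairings. The share of pairs was above that of the other pairings in every step of 0.1 from 0.5 upward.

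Location alone was examined through neighbours. Each nested locus was set beside the nearest locus on the strand of its host that lay beyond the ends of that host, a median of 7508 bp away. The median r was then 0.03, and 11.4% reached 0.7. Among 14036 pairs of consecutive opposite-strand loci that did not overlap, the median was 0.07 and 13.4% reached 0.7. Among 3165 opposite-strand pairs that overlapped only in part, the median was 0.13 and 17.7% reached 0.7. With all lengths pooled, the nested pairs fell between these 2 kinds of neighbour. The kinds differ in length: both loci were under 2 kb in 601 of the 3165 pairs and in 154 of the 2099 nested pairs. In that class the median was 0.61 for nested pairs and 0.47 for pairs overlapping in part, and 35.7% and 30.8% reached 0.7. With a longer locus the medians were 0.06 and 0.05, and 14.3% and 14.6% reached 0.7.

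**Figure D2:**
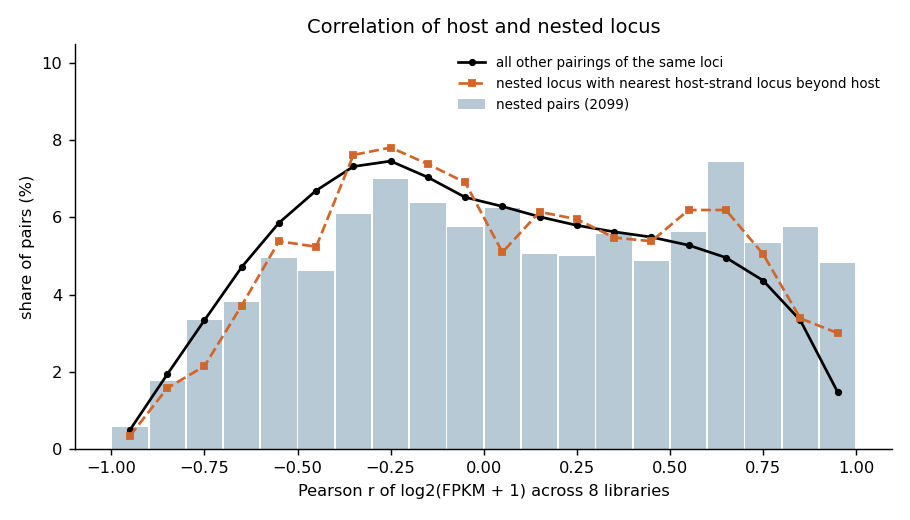
Share of pairs (%) by Pearson r of log2(FPKM + 1) across 8 libraries, in steps of 0.1; bars are the 2099 nested pairs, the solid line all other pairings of the same loci and the dashed line each nested locus with its nearest host-strand neighbour beyond the host. The bars lie above the solid line from 0.5 upward and below it between -0.7 and 0.5, and 15.9% of pairs against 9.17% of other pairings reach 0.7.

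Without library R2 the median r was 0.08, against -0.02 for the other pairings. With post-flowering leaves left out as well it was 0.06 against -0.03. With both loci of 500 bp or more, which left 1494 pairs, it was 0.02 against -0.03, and 14.7% against 9.50% reached 0.7.

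Compact pairs had the highest values. In the 154 pairs with a host under 2 kb, a limit chosen after the values were seen, the median r was 0.61, with quartiles of 0.07 and 0.82. An r of 0.7 or more was found in 55 of them (35.7%) and an r of -0.5 or less in 5. All other pairings within that class had a median of -0.04, and the same nested loci had a median of 0.23 with their nearest neighbour beyond the host. In hosts of 2 to 5 kb the median r was 0.14, in those of 5 to 10 kb 0.05, in those of 10 to 20 kb 0.11, in those of 20 to 100 kb 0.02 and in those of 100 kb or more -0.08. When each library was left out in turn, the median under 2 kb lay between 0.53 and 0.62 and that over all longer hosts between 0.05 and 0.11.

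**Figure D3:**
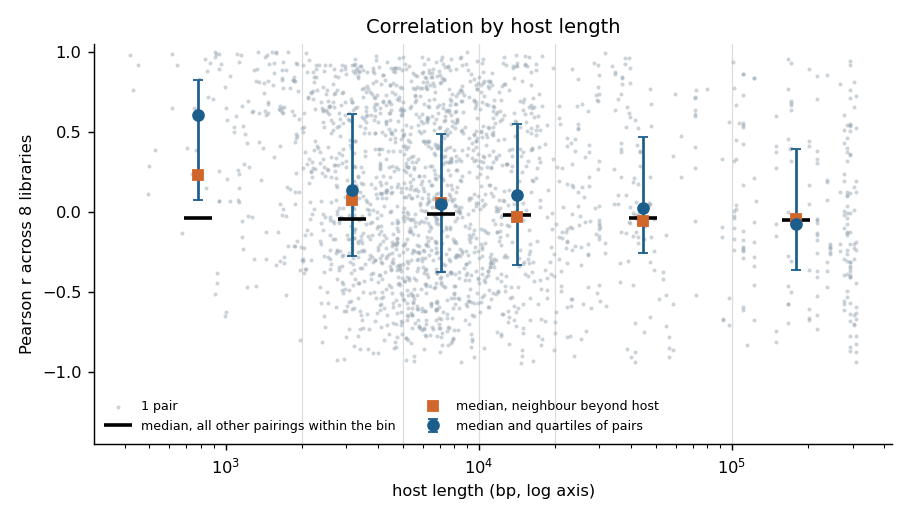
Pearson r of each nested pair (grey points) against host length in bp on a log axis, with the median and quartiles of pairs in 6 length classes, the median of all other pairings within the class (black bars) and the median with the neighbour beyond the host (squares). The class under 2 kb lies at 0.61, while the medians of the 5 longer classes lie between -0.08 and 0.14.

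The high correlations in compact pairs were found at every relative level. Where the nested maximum was under 5% of the host maximum, the median r was 0.53 over 23 pairs. It was 0.61 over 49 pairs at 5% to 25%, 0.62 over 37 pairs at 25% to 100%, and 0.57 over 45 pairs where the nested locus was the higher. In hosts of 2 kb or more, the corresponding medians were 0.15, 0.03, 0.03 and 0.03. Whether reads of 1 strand contribute to values of the other was not tested.

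Length and cover were separated. Hosts of 2 kb or more that were covered by 25% or more had a median r of 0.02 over 424 pairs, whereas hosts under 2 kb covered by less than 25% had 0.55 over 22 pairs. The same split by length was seen in pairs that overlapped only in part: the median r was 0.47 over 601 pairs with both loci under 2 kb, and 0.05 over 2564 pairs with a longer locus. For consecutive loci without overlap it was 0.15 over 2351 pairs with both loci under 2 kb and 0.06 over 11685 others. By position, nested loci toward the 5′ end of the host had a median r of 0.17, those in the middle 0.11 and those toward the 3′ end 0.03.

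The compact pairs with the highest levels, chosen after their values were seen as the 5 with the highest lower maximum among hosts under 2 kb, followed each other across organs. M_XLOC_033290 (chromosome 7 from 4567612 to 4568480, minus strand, 869 bp) stood at 293 FPKM in flower buds, 370 in flowers, 397 in pre-flowering leaves, 261 in post-flowering leaves, 1063 in pre-flowering roots, 305 in library R2, 325 in milk grains and 96.7 in mature seeds. Its nested locus P_XLOC_032643 (4568033 to 4568381, plus strand) stood, in the same order, at 49.7, 102, 93.6, 79.9, 316, 63.4, 31.4 and 10.9 FPKM. Both were highest in pre-flowering roots and lowest in mature seeds, with an r of 0.93, which was 0.34 without the 2 libraries in which the host lay farthest from its median.

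P_XLOC_004210 (chromosome 1 from 42301598 to 42302554, plus strand, 957 bp) stood at 3.48 FPKM in flower buds, 39.7 in flowers, 513 in pre-flowering leaves, 845 in post-flowering leaves, 299 in pre-flowering roots, 1065 in library R2, 95.8 in milk grains and 2.09 in mature seeds. Its nested locus M_XLOC_004924 (42301813 to 42302197, minus strand) stood at 0.489, 0, 33.1, 58.2, 17.4, 92.2, 15.4 and 0 FPKM in that order. The vegetative libraries were high and flower buds and mature seeds low for both loci. The r was 0.93, also without the 2 libraries farthest from the median of the host.

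In M_XLOC_006678 (chromosome 10 from 14657531 to 14659451, minus strand, 1921 bp) the nested locus was the higher one in 4 libraries. The host stood at 53.1 FPKM in flower buds, 56.0 in flowers, 28.3 in pre-flowering leaves, 111 in post-flowering leaves, 14.3 in pre-flowering roots, 78.4 in library R2, 30.9 in milk grains and 6.10 in mature seeds. Its nested locus P_XLOC_006356 (14657795 to 14658230, plus strand) stood at 41.8, 171, 11.5, 259, 0, 173, 92.8 and 0 FPKM in that order. Both loci were lowest in mature seeds and pre-flowering roots and highest in post-flowering leaves, with an r of 0.92, which was 0.77 without the 2 libraries farthest from the median of the host. The other 2 such pairs were M_XLOC_008360 with P_XLOC_007966 on chromosome 11, at an r of 0.87, and M_XLOC_001341 with P_XLOC_000531 on chromosome 1, at an r of 0.94. Without the 2 libraries farthest from the median of the host these values were 0.47 and 0.43.

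Host and nested locus seldom had their highest level in the same library. They did so in 393 pairs (18.7%), against 13.4% of the other pairings and 16.9% of nested loci with their neighbour beyond the host. In hosts under 2 kb, a class chosen after the values were seen, 60 of 154 pairs (39.0%) had the same highest library. The shares among other pairings and neighbours within that class were not counted. Nested loci with their maximum in mature seeds shared it with the host in 92 of 373 pairs (24.7%). Those in pre-flowering roots did so in 71 of 315 (22.5%), in post-flowering leaves in 56 of 253 (22.1%) and in flowers in 10 of 135 (7.41%). Whatever the nested locus did, the host was highest in mature seeds in 450 of the 2099 pairs (21.4%). It was highest in pre-flowering roots in 334 (15.9%), post-flowering leaves in 256 (12.2%) and flowers in 126. The shares for mature seeds and flowers were thus near those of hosts in general.

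Stage comparisons asked how often both members of a pair changed between 2 libraries of the same organ. A locus was counted as changed when it differed at least 4-fold on the FPKM + 1 scale and stood at 1 FPKM or more in either library. Members were counted once for each pair they belong to. Members are all of 300 bp or more, so the shares among tested loci are given first for all lengths and then, for shares of members, over loci of 300 bp or more. Between flower buds and flowers, 33 nested loci were higher in flowers and 40 were lower, as were 38 and 30 hosts, where 3.08% of all tested loci were higher and 3.61% lower. As shares of members tested, 2.76% of nested entries and 2.05% of host entries were higher, against 2.44% of loci of 300 bp or more, and 3.34% and 1.62% were lower, against 2.83%. Host and nested locus changed in the same direction in 1 pair and in opposite directions in 1 pair, and 1960 pairs had no change in either locus.

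In leaves the members that changed together mostly did so in the same direction. After flowering 73 nested loci were higher and 56 lower, and 95 hosts were higher and 44 lower, where 4.89% of all tested loci were higher and 3.54% lower. Of members tested, 5.67% of nested and 5.33% of host entries were higher, against 3.95% of loci of 300 bp or more, and 4.35% and 2.47% were lower, against 2.88%. Both loci were higher in 12 pairs and both lower in 3, while they went in opposite directions in 1. Same-direction pairs made up 0.715% of pairs and 0.211% of the other pairings, and opposite pairs 0.0476% and 0.20%. A pseudocount of 0.1 gave 50 and 11 pairs, and libraries rescaled to equal sums gave 3 and 1.

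Between the 2 libraries labelled roots 797 pairs had a changed locus, and the direction rests on the label of R2. In library R2 197 nested loci were higher and 167 lower than in pre-flowering roots, and 277 hosts were higher and 256 lower, where 13.5% of all tested loci were higher and 16.5% lower. Among tested members 13.1% of nested and 14.6% of host entries were higher, against 11.1% of loci of 300 bp or more, and 11.1% and 13.5% were lower, against 16.9%. Both loci were higher in 48 pairs and both lower in 28, whereas 24 went in opposite directions. Same-direction pairs made up 3.62% of pairs and 2.36% of the other pairings, and opposite pairs 1.14% and 2.34%. A pseudocount of 0.1 gave 178 same-direction and 75 opposite pairs, and equal sums gave 23 and 7. Of the 154 pairs with a host under 2 kb, 15 changed in the same direction and 0 in opposite directions. These counts were 15 and 1 from milk grains to mature seeds, 1 and 0 in leaves and 0 and 0 between flower buds and flowers. That class was chosen after the values were seen, and the shares among other pairings within it were not counted.

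From milk grains to mature seeds hosts were more often lower than higher, and nested loci were divided evenly. Higher in mature seeds were 186 nested loci and 136 hosts, and lower were 187 nested loci and 332 hosts, where 11.5% of all tested loci were higher and 17.4% lower. Among members tested, 14.9% of nested entries and 7.44% of hosts were higher, against 10.1% of loci of 300 bp or more, and 15.0% and 18.2% were lower, against 16.5%. Both loci were lower in 35 pairs and both higher in 21. Of the 31 pairs with opposite changes, 24 had a higher nested locus in a lower host and 7 the reverse. Same-direction pairs made up 2.67% of pairs and 2.06% of the other pairings, and opposite pairs 1.48% and 2.05%. A pseudocount of 0.1 gave 113 same-direction and 88 opposite pairs, equal sums 22 and 8, and a 2-fold limit 205 and 197.

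**Figure D4:**
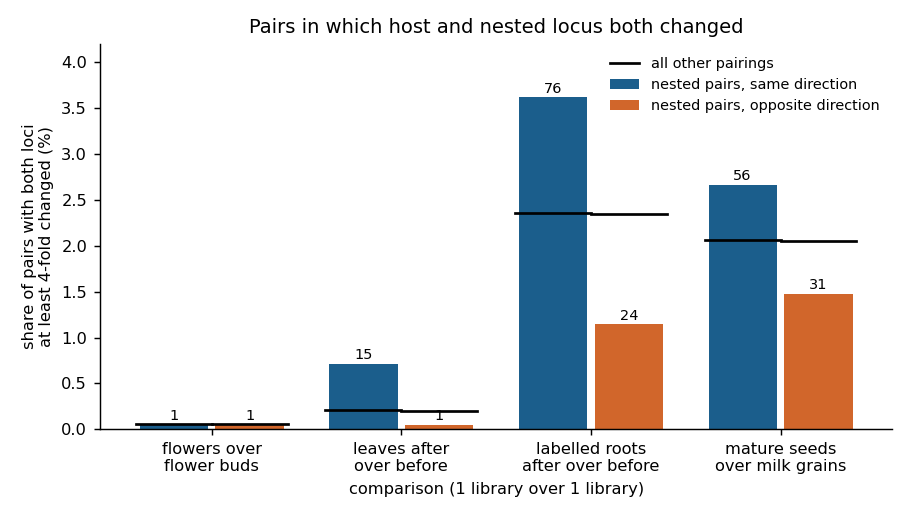
Share of the 2099 nested pairs (%) in which host and nested locus both differed at least 4-fold between 2 libraries, in the same direction (blue) or in opposite directions (orange), with the number of pairs above each bar and the share among all other pairings as a black line. In leaves, the libraries labelled roots and seeds the same-direction bars (15, 76 and 56 pairs) lie above the line and the opposite bars (1, 24 and 31 pairs) below it.

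Individual pairs show the range of behaviour. Those named next were taken by fixed rules from the 613 pairs with both loci at 10 FPKM or more in some library, so that their high, low or opposite values are a description. The highest correlations came largely from loci seen in 1 or 2 libraries. P_XLOC_009765 (chromosome 11 from 25711083 to 25720104, plus strand) was at 1.41 FPKM in milk grains and 20.9 in mature seeds and was listed at 0 in the other 6 libraries. Its nested locus M_XLOC_010245 (25714111 to 25718022, minus strand) had 3.93 and 97.5 FPKM in these libraries and 0.123 or less elsewhere. The r was 0.998, and it could not be computed without the 2 seed libraries because the host then has no variation.

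P_XLOC_034963 (chromosome 7 from 29125377 to 29126320, plus strand, 944 bp) was likewise a seed locus, at 35.0 FPKM in milk grains, 223 in mature seeds and 0.688 or less elsewhere. Its nested locus M_XLOC_035537 (29125576 to 29126040, minus strand) was at 9.79 FPKM in milk grains, 53.5 in mature seeds and 0.786 or less elsewhere. The r was 0.99, but 0.09 over the 6 libraries in which both were low.

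P_XLOC_006245 (chromosome 10 from 13438132 to 13469730, plus strand, 31599 bp) was a root locus that held nested loci of unlike pattern. It stood at 283 FPKM in pre-flowering roots, 1.01 in milk grains, 0.462 in mature seeds and 0.0869 or less elsewhere. Its nested locus M_XLOC_006568 (13449222 to 13450950, minus strand) stood at 216 FPKM in pre-flowering roots and 0.136 or less elsewhere, with an r of 0.99 that was 0.20 without the 2 libraries farthest from the median of the host. A second nested locus of the same host, M_XLOC_006570 (13457383 to 13462430, minus strand), stood at 25.5 FPKM in flower buds, 5.33 in flowers and 0.0453 or less elsewhere, and so was listed at 0 where the host and its other nested locus were high.

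On chromosome 4 nesting was repeated in 4 layers. M_XLOC_023547 (13862169 to 13869167, minus strand, 6999 bp) was the outermost and stood at 4.58 FPKM in flower buds, 4.66 in flowers, 1.07 in pre-flowering leaves, 0.435 in post-flowering leaves, 2.26 in pre-flowering roots, 1.054 in library R2, 2.93 in milk grains and 19.7 in mature seeds. It was lowest in post-flowering leaves and highest in mature seeds. Inside it P_XLOC_022840 (13863222 to 13868260, plus strand) stood at 4.42 FPKM in flower buds, 8.09 in flowers, 63.4 in pre-flowering leaves, 429 in post-flowering leaves, 0.391 in pre-flowering roots, 334 in library R2, 6.38 in milk grains and 2.56 in mature seeds. Inside it M_XLOC_023548 (13864743 to 13865162, minus strand, 420 bp) stood at 0.208, 1.00, 2.73, 8.96, 0, 10.4, 0 and 0 FPKM in that order. Inside that lay P_XLOC_022841 (13864786 to 13865160, plus strand, 375 bp) at 0.396, 2.15, 17.3, 80.8, 0, 72.7, 1.24 and 0.514 FPKM. The 3 inner loci were highest in post-flowering leaves and in library R2, where the outermost was low. The r of M_XLOC_023547 was -0.70 with P_XLOC_022840 and -0.72 with P_XLOC_022841. The r of M_XLOC_023548 was 0.97 with P_XLOC_022840 around it and 0.98 with P_XLOC_022841 inside it, and 0.89 and 0.94 without the 2 libraries farthest from the median of the host. Layers alternate in strand, so that loci on the same strand also overlap, and the sources used here do not say how reads were divided between those.

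The lowest correlations follow. P_XLOC_028874 (chromosome 6 from 1459192 to 1464745, plus strand) stood at 26.0 FPKM in flower buds, 80.2 in flowers, 1.97 in pre-flowering leaves, 0.573 in post-flowering leaves, 1.99 in pre-flowering roots, 0.554 in library R2, 60.5 in milk grains and 3.0 in mature seeds. Its nested locus M_XLOC_029590 (1460368 to 1462053, minus strand) stood at 18.5, 2.04, 36.4, 51.0, 24.8, 59.0, 6.87 and 41.9 FPKM in that order. The host was high in flowers and milk grains, where the nested locus was lowest, and low in leaves, roots and mature seeds, where the nested locus was high. The r was -0.93, and -0.85 without the 2 libraries farthest from the median of the host. The log2 ratio of nested locus to host ran from -4.74 to 5.27.

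M_XLOC_010955 (chromosome 12 from 1405136 to 1446420, minus strand) had a smaller range. The host stood at 58.9 FPKM in flower buds, 67.4 in flowers, 29.9 in pre-flowering leaves, 22.9 in post-flowering leaves, 27.6 in pre-flowering roots, 21.0 in library R2, 47.5 in milk grains and 78.6 in mature seeds. Its nested locus P_XLOC_010544 (1436966 to 1445090, plus strand) stood at 1.64, 2.35, 10.2, 40.3, 34.9, 38.3, 4.17 and 3.01 FPKM in that order. The host was higher, and the nested locus lower, in flowers, buds, grains and seeds than in leaves and roots, with an r of -0.94, and -0.96 without the 2 libraries farthest from the median of the host.

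In the other 3 pairs with the lowest r the nested locus was highest in mature seeds. M_XLOC_003962 (chromosome 1 from 33137905 to 33152593, minus strand) had 1.42 FPKM in mature seeds and 19.2 to 136 in the others, while its nested locus P_XLOC_003258 (33147676 to 33148407, plus strand) was at 41.0 in mature seeds and at 0.518 to 12.2 in the others. M_XLOC_017099 (chromosome 2 from 32643352 to 32648504, minus strand) had 13.3 FPKM in mature seeds and 65.2 to 134 elsewhere, and its nested locus P_XLOC_016369 (32643525 to 32644843, plus strand) had 142 and 0.0886 to 13.6. M_XLOC_009026 (chromosome 11 from 11744642 to 11761002, minus strand) had 23.9 and 20.1 FPKM in milk grains and mature seeds and 45.0 to 80.0 elsewhere, and its nested locus P_XLOC_008537 (11749368 to 11751939, plus strand) had 13.7 and 22.5 FPKM there and 2.53 or less elsewhere. The r was -0.94, -0.93 and -0.93 in these pairs, and -0.54, -0.90 and -0.49 without the 2 libraries farthest from the median of the host.

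The widest swing was at M_XLOC_003865 (chromosome 1 from 32070714 to 32082488, minus strand), a host present in every library. It stood at 60.3 FPKM in flower buds, 48.7 in flowers, 136 in pre-flowering leaves, 64.2 in post-flowering leaves, 42.1 in pre-flowering roots, 71.6 in library R2, 39.8 in milk grains and 19.6 in mature seeds. Its nested locus P_XLOC_003147 (32076732 to 32078743, plus strand) stood at 0.549, 0.422, 60.5, 61.3, 1.59, 0.0175 and 0 FPKM in the first 7 of these and at 38067 in mature seeds. The nested locus was thus near the host in both leaf libraries, almost absent in most others, and 10.85 log2 units above the host in mature seeds. It also separated post-flowering leaves, at 61.3 FPKM, from library R2, at 0.0175.

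P_XLOC_023436 (chromosome 4 from 20559927 to 20709843, plus strand) was a host of 149917 bp that stood at 296 FPKM in flower buds, 391 in flowers, 1.30 in pre-flowering leaves, 1.16 in post-flowering leaves, 279 in pre-flowering roots, 1.25 in library R2, 144 in milk grains and 538 in mature seeds. Its nested locus M_XLOC_024148 (20679567 to 20680672, minus strand) stood at 4.07, 5.34, 67.4, 24.3, 3.88, 16.8, 0 and 1.89 FPKM in that order. The 3 libraries in which the host was near 1 FPKM were those in which the nested locus was highest, with an r of -0.81.

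Among pairs with the highest levels of both loci, 3 of 5 had an r from 0.838 to 0.968. P_XLOC_004291 (chromosome 1 from 42959973 to 42967127, plus strand) stood at 674 FPKM in pre-flowering leaves, 2211 in post-flowering leaves, 2078 in library R2 and 15.3 or less in the other 5. Its nested locus M_XLOC_005000 (42961635 to 42962009, minus strand, 375 bp) stood at 848, 1521 and 2277 FPKM in these and was listed at 0 in the other 5, with an r of 0.97. P_XLOC_024687 (chromosome 4 from 33161540 to 33164911, plus strand) and its nested locus M_XLOC_025503 (33162030 to 33162353, minus strand, 324 bp) stood at 2906 and 3391 FPKM in pre-flowering leaves and at 29.4 and 0 in mature seeds, with an r of 0.88. M_XLOC_035402 (chromosome 7 from 27817530 to 27824677, minus strand) stood at 632 FPKM in pre-flowering leaves and 6.40 in mature seeds, and its nested locus P_XLOC_034820 (27819772 to 27824222, plus strand) at 617 and 2.28, with an r of 0.84. Without the 2 libraries farthest from the median of the host, r was 0.92, 0.81 and 0.67 in these 3 pairs, in the order named.

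The other 2 pairs with high levels divided their maxima between organs. M_XLOC_004893 (chromosome 1 from 41969754 to 41978408, minus strand) was highest in pre-flowering leaves, at 1635 FPKM, and stood at 86.1 in pre-flowering roots. Its nested locus P_XLOC_004174 (41971985 to 41973023, plus strand) was highest in pre-flowering roots, at 2484 FPKM, and stood at 90.4 in pre-flowering leaves. The r was 0.63. P_XLOC_040054 (chromosome 9 from 18269124 to 18269793, plus strand) stood at 718 FPKM in flower buds, 236 in flowers and 1.46 or less elsewhere, inside M_XLOC_040622, which stood at 365 FPKM or more in every library.

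**Figure D5:**
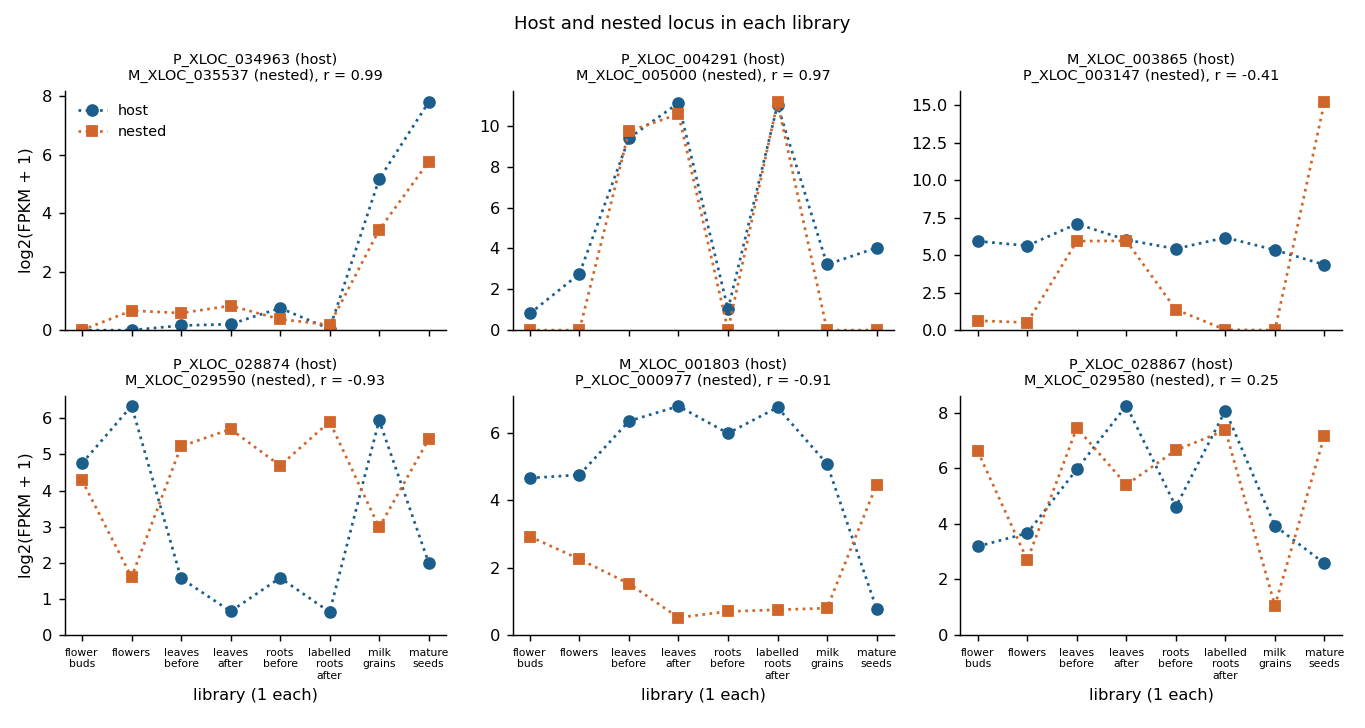
Levels of host (blue circles) and nested locus (orange squares) on the log2(FPKM + 1) scale in the 8 libraries, 1 library each, for 6 named pairs; dotted lines only guide the eye. The upper row shows a seed pair with an r of 0.99, a leaf pair with an r of 0.97 and the nested locus that reached 38067 FPKM in mature seeds; the lower row shows pairs with an r of -0.93, -0.91 and 0.25.

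Opposite changes were taken for each stage comparison. M_XLOC_001803 (chromosome 1 from 9644053 to 9653617, minus strand) holds P_XLOC_000977 (9644585 to 9653519, plus strand), which covers 93.4% of it. The host stood at 24.2 FPKM in flower buds, 26.0 in flowers, 80.6 in pre-flowering leaves, 110 in post-flowering leaves, 62.4 in pre-flowering roots, 107 in library R2, 32.8 in milk grains and 0.719 in mature seeds. The nested locus stood at 6.57, 3.76, 1.87, 0.43, 0.622, 0.678, 0.735 and 21.1 FPKM in that order. From milk grains to mature seeds the host fell by 4.30 and the nested locus was 3.67 higher, on the log2(FPKM + 1) scale, and the nested locus was the higher of the pair in mature seeds alone among the 8 libraries. The second such pair in seeds was P_XLOC_016576 (chromosome 2 from 34609384 to 34615666, plus strand), at 38.0 FPKM in milk grains and 1.03 in mature seeds, with M_XLOC_017303 (34610607 to 34610919, minus strand), listed at 0 in milk grains and at 9.41 in mature seeds.

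In leaves the 1 pair past the 4-fold limit was P_XLOC_028867 (chromosome 6 from 1383618 to 1386322, plus strand), which stood at 61.3 FPKM before and 303 after flowering. Its nested locus M_XLOC_029580 (1384581 to 1385556, minus strand) stood at 174 and 41.2 FPKM. The host was 2.29 higher and the nested locus fell by 2.05 on the log2 scale. In library R2 the nested locus stood at 163 FPKM, nearer to its level in pre-flowering leaves, while the host stood at 268. Between flower buds and flowers, P_XLOC_005132 (chromosome 10 from 866059 to 882156, plus strand) stood at 24.6 and 129 FPKM and its nested locus M_XLOC_005410 (876455 to 881517, minus strand) at 26.5 and 0.0955. This was the 1 pair past the 4-fold limit there. The next largest opposite changes stayed below that limit: in flowers, M_XLOC_033019 on chromosome 7 differed by 1.78 and its nested locus P_XLOC_032344 by -1.81 on the log2 scale. In leaves, M_XLOC_003962 differed by -2.42 and P_XLOC_003258 by 1.88.

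Between the libraries labelled roots, M_XLOC_031184 (chromosome 6 from 18002577 to 18009405, minus strand) stood at 35.4 FPKM in pre-flowering roots and 0.522 in R2. Its nested locus P_XLOC_030465 (18007160 to 18007753, plus strand) stood at 0.285 and 45.1 FPKM. M_XLOC_007138 (chromosome 10 from 19147616 to 19156754, minus strand) stood at 6.0 and 80.2 FPKM in the same libraries, and its nested locus P_XLOC_006793 (19152303 to 19152971, plus strand) at 15.8 and 0.31. The leaf libraries were like library R2 for M_XLOC_007138, at 112 and 71.5 FPKM, and for P_XLOC_006793, at 0.384 and 0.126.

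The 3 hosts with the most nested loci held loci of many patterns. M_XLOC_040622 (chromosome 9 from 18248989 to 18541230, minus strand, 292242 bp) held 28, which together covered 32.8% of it. The host ranged from 365 FPKM in library R2 to 2334 in mature seeds. Of its nested loci 7 were highest in flower buds, 5 in flowers, 5 in pre-flowering leaves, 5 in mature seeds and 6 in the remaining 4 libraries together. Their r with the host ran from -0.87 for P_XLOC_040060 to 0.94 for P_XLOC_040071, with a median of -0.25, and none exceeded the maximum of the host.

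M_XLOC_014153 (chromosome 2 from 2318803 to 2604033, minus strand, 285231 bp) was a low host of 21 nested loci. It stood between 1.07 FPKM in pre-flowering roots and 4.44 in library R2, and 19 of its nested loci reached a higher maximum, up to 237 FPKM. Their median r with the host was -0.04. M_XLOC_035012 (chromosome 7 from 23586312 to 23802656, minus strand, 216345 bp) held 17 nested loci, of which 9 were highest in pre-flowering roots. The host stood at 123 FPKM there and at 357 in mature seeds. The nested maxima ran from 1.41 to 8463 FPKM, with a median r of -0.13.

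Values on both sides of the length limit follow. With the shorter locus less than 10 bp above the limit, 34 pairs had a median nested maximum of 4.23 FPKM and a median r of 0.21. With it up to 10 bp below the limit, 29 excluded pairs had 8.45 FPKM and 0.40. Exactly 300 bp long were M_XLOC_028000 on chromosome 5, at 3.94 FPKM or less, P_XLOC_002370 on chromosome 1, at 41.8 or less, and P_XLOC_014346 on chromosome 2, at 3.64 or less. Nested loci 1 bp shorter, which were left out, were M_XLOC_004581 on chromosome 1, at 9.55 FPKM or less, and P_XLOC_027267 on chromosome 5, at 1.20 or less. In all, 586 nested pairs with a locus under 300 bp were left out of 2685 of any length.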

How the data were processed

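The authors deposited 1 table of FPKM values for 41805 loci in 8 libraries, 1 per group. The submitters' processing notes list TopHat, Cufflinks and Cuffdiff without versions. Per the file headers, positions are on MSU Release 7. The reference gene table is on another assembly and shares 0 identifiers with the file, so no gene name, sequence or exon was used. Read totals are unknown. Relative depth and strand scales were read from loci of 101 bp, where all 212 values under 60 steps were whole multiples, within 0.03, of a step for that library and strand. Pairs, correlations of log2(FPKM + 1) and counts were computed with Python 3.11.15, numpy 2.4.6, pandas 2.3.3 and scipy 1.17.1, and the code was tested on simulated data. Every other pairing of a host with an opposite-strand nested locus was enumerated. Alternatives were another pseudocount, minimum, scaling, length limit, fold limit and correlation, 1 nested locus per host, and each library left out. Named pairs were, among those with both loci at 10 FPKM or more, the 5 highest and 5 lowest in r, the 5 with the highest lower maximum, the 5 widest swings in nested to host ratio and the 2 largest opposite changes per stage comparison; to these came the 3 hosts with the most nested loci and pairs at the length limit. Members and rules were chosen with earlier results of these data known, and the compact pairs and the outermost host on chromosome 4 after their values were seen.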

Additional observations from a re-analysis of the deposited data

Results flagged for a closer look

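P_XLOC_030465 went opposite ways in the leaf pair and the pair of libraries labelled roots. On the log2(FPKM + 1) scale, post-flowering minus pre-flowering, the difference was -4.88 in leaves, from 50.7 to 0.757 FPKM. It was 5.16 between pre-flowering roots and library R2, from 0.285 to 45.1 FPKM. Every library here stands alone in its group, so this contrast was not tested, and calling it a contrast of organs relies on the R2 label.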

How the results depend on the processing

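The median r stayed positive in every setting, while shares and counts have no sign to change and several of them moved. The median r of 0.09 was 0.13 with a pseudocount of 0.1, 0.21 with equal sums (1261 pairs above the minimum), 0.024 with loci of 500 bp or more, 0.13 with 1 nested locus per host (1336 pairs) and 0.056 without post-flowering leaves and library R2; the other pairings had 0.002, 0.09, -0.03, -0.02 and -0.03. Leaving out each library in turn gave 0.081 to 0.14. The share with an r of 0.7 or more was 14.0% by Spearman, 17.7% with 1 nested locus per host, 14.3% in hosts of 2 kb or more, a setting added after the data were seen, and 15.8% to 20.2% with a library left out. Among the other pairings these shares were 8.08%, 9.03%, 9.25% and 8.98% to 13.3%, so both rose when pre-flowering roots were left out. The share with the same highest library was 16.5% at 500 bp or more and 19.7% to 21.9% with a library left out. The nested locus had the higher maximum in 27.8% of pairs with equal sums, 25.5% at 500 bp or more and 31.0% where it stood at 5% or more of its host. Pairs with a changed locus numbered 139, 252, 797 and 754 in flowers, leaves, the libraries labelled roots and seeds. A 2-fold limit gave 576, 844, 1498 and 1417. A pseudocount of 0.1 gave 315 in flowers and 482 in leaves. Equal sums gave 131 in leaves, 492 in the libraries labelled roots and 444 in seeds. That rescaling divided all values, by 2.13 in flower buds up to 5.31 in mature seeds, and kept the pseudocount and minimum of 1. It therefore changes the effective pseudocount and minimum along with the balance between libraries, and their parts were not separated. The cause of the differences between settings was not tested. No paired analysis was possible because each group has 1 library and the result comes from no test. The lowest value above 0 among the shortest loci of 300 bp or more was highest in mature seeds, at 0.165 FPKM, against 0.0282 in the deepest library. The part of depth in the values of low nested loci was not tested.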
